A study of Homo sapiens with 16 samples.

Results

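The comparison described here sets 2 lists of peaks from H1299 cells with wild-type (WT) PABPC1, named for arsenite (AS), against 2 lists named for untreated WT cells. A peak is a site at which the authors' caller found more reads than its background. All peaks of the series' 8 lists were merged wherever they shared at least 1 bp of the same strand, which gave 36802 regions. A region counts as lost when it had a peak in 2 of 2 WT lists and in 0 of 2 WT-AS-named lists, and gained in the reverse case. By this rule 3544 regions were lost (19.1% of the regions in both WT lists) and 3021 gained (17.1% of those in both WT-AS-named lists), 6565 members in all.

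H1299 is a long-used cell line from a human lung carcinoma. It carried a stably expressed PABPC1 with a Myc tag, as WT in the lists compared here or with K512R, in which arginine replaces a lysine, and cells were kept with or without 500 µM sodium arsenite. RNA bound to the tagged protein was pulled down with an anti-Myc antibody and sequenced after removal of ribosomal RNA (RIP-seq). The sources used here do not give whether the lines were clones or pools, or how long arsenite was applied. PABPC1 binds the poly(A) tail at the 3' end of mRNAs in the cytoplasm and takes part in their translation and stability. Arsenite causes oxidative stress and stops the start of translation on most mRNAs. The stalled mRNAs gather with PABPC1 and other proteins in stress granules.

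The list names and the sample record give different conditions for the WT-AS-named lists. By name they are the arsenite lists of WT cells, and the comparison then asks which RNA sites with WT PABPC1 passed the caller with and without arsenite. By the titles in the record they are input RNA from WT cells without arsenite, and the comparison then sets input against the immunoprecipitate, with arsenite in neither. For the WT lists both sources give WT without arsenite. The list names of the series cover WT and K512R with and without arsenite, in 2 lists each, whereas the 8 records that hold lists all read WT. No paper was used here, so which reading holds was not settled, and every result below can be read either way. Nothing in the record says that replicates came from separate cultures, so their spread may be technical.

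The 4 lists were similar in size. WT replicates 1 and 2 held 21979 and 22083 peaks, and WT-AS-named replicates 1 and 2 held 20309 and 21160. The peaks covered 8.33 and 8.41 Mb in the WT lists and 6.95 and 7.15 Mb in the WT-AS-named lists. Both WT-AS-named lists thus lay below both WT lists in number and in length. An exact 2-sided permutation test of 2 lists against 2 cannot give a p below 0.333, so that test cannot pass 0.05 here and values are given by list. Replicates shared most of their regions. Of the regions in either WT list 18525 were in both (a Jaccard index of 0.729), and of those in either WT-AS-named list 17639 were in both (0.743). Between a WT and a WT-AS-named list the index was 0.544 to 0.553. Read depth is unknown, and a region without a peak is a site that did not pass the caller, which does not show that the RNA was absent.

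Most regions found in both WT lists stayed. Of these 18525 regions, 12803 had a peak in both WT-AS-named lists and are called kept, 2178 had a peak in 1 of them, and 3544 were lost, which is 19.1%. Of the 17639 regions in both WT-AS-named lists 3021 were gained, which is 17.1%. Another 1815 of them had a peak in 1 WT list. The remaining 13441 regions had a peak in at most 1 list of each pair, and 5586 of these had none in the 4 lists. The count of lost regions rests on both WT lists: with WT replicate 1 left out it was 5522, and with WT replicate 2 left out 5485. With WT-AS-named replicate 1 left out, 4607 regions were gained and 4460 lost. Which class is larger also depends on list length, since lists limited to the 19953 best-scoring peaks gave 2995 lost and 3276 gained.

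By the median, lost regions were about as wide as kept ones and gained regions were narrower. The median width was 198 bp for lost, 154 bp for gained and 202 bp for kept regions. The widest lost region spanned 7285 bp, of which the WT lists covered 810 and 1892 bp, and the widest gained 4449 bp. Over 1000 bp there were 490 of 3544 lost, 206 of 3021 gained and 1045 of 12803 kept regions. Wide regions thus made up a larger part of the lost class than of the kept class. In sequence covered, the lost regions held 1.72 and 1.73 Mb in the WT lists. The gained regions held 0.915 and 0.922 Mb in the WT-AS-named lists.

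Lost sites at the top score in both WT lists ranged from short to long peaks. The score is the authors' value per peak, of unstated unit, and 9.004% to 10.2% of the peaks of each of the 4 lists reach 3100 or more. Here it serves only for ranking within a list. In all, 32 lost and 55 gained regions reached 3100 in both lists that held them. The 32 lost ones were 109 to 4186 bp wide, with a median of 751.5 bp, and 14 of them were over 1000 bp. They tie in rank, and the 12 described by position are the widest of the tie, as the rule for naming sets. The region chr16:81076766-81080951 (hg19, plus strand) covered 4163 and 4186 bp in WT replicates 1 and 2 and had no peak in either WT-AS-named list. In the K512R-named lists it was present at 3100 in both, and in K512R-AS-named replicate 2 it was present at a score of 36.66. The region chr17:80559179-80562483 (plus strand, 3305 bp) was held over its whole length at 3225.28 and 3100 in the WT lists and at 3100 in both K512R-named lists. It had no peak in any of the 4 AS-named lists, which parts it from the chromosome 16 site.

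The same presence pattern, both WT and both K512R-named lists and no AS-named list, held for 6 of these 12 lost regions. Over all lost regions it held for 1875 of 3544 (52.9%), so it was not particular to these sites. Beside the site on chromosome 17 the 6 were chr19:13248961-13251961 (plus, 3001 bp), chr16:30368422-30369894 (minus, 1473 bp), chr19:42794385-42795618 (plus, 1234 bp), chr19:1980148-1981336 (plus, 1189 bp) and chr16:21414429-21415556 (minus, 1128 bp). Among the other 6, chr1:25226002-25229157 (minus, 3156 bp), chr5:81569139-81572074 (minus, 2936 bp) and chr12:57908737-57910430 (plus, 1694 bp) each came back in 1 K512R-AS-named list, at scores of 50.37, 61.77 and 41.7. Scores rank peaks only within a list, so these are not set against the 3100 of the WT lists. The region chr19:11039690-11040916 (plus, 1227 bp) had a peak in both K512R-AS-named lists, at 1244.76 and 1573.4. Its loss was thus seen in the WT-based comparison and not in the other.

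The 5 widest lost regions had poorer score percentiles from 27.9 to 86.4 within the WT lists, with 76.2, 78.9 and 86.1 between. The widest, chr22:46631030-46638314 (plus), covered 810 and 1892 bp in the WT lists at scores of 65.68 and 51.61. Its full span comes from the K512R-named lists, in which it covered 7183 and 7285 bp. By contrast chr10:72181472-72188374 (plus) was covered over all its 6903 bp in both WT lists, at 847.86 and 1971.46, and in both K512R-named lists at 3100. The region chr12:109176466-109183020 (minus) covered 6504 and 6555 bp at 1739.84 and 2193.44. The regions chr14:89622516-89629313 (minus) and chr3:51428699-51435336 (plus) covered 6756 and 1944 bp, and 4206 and 4280 bp, in WT replicates 1 and 2. All 5 of the widest lost regions were present in both K512R-named lists and absent from both K512R-AS-named lists, as were 52.9% of all lost regions.

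The 55 gained regions at the top score were 51 to 3587 bp wide, with a median of 328 bp, and 10 of them were over 1000 bp. The widest of them, chr14:90871033-90874619 (plus strand, 3587 bp), was covered in full at 3100 in both WT-AS-named lists and had no peak in either WT list. It also had none in the K512R-named lists, while the K512R-AS-named lists held all of it at 3100 and 2379.86. Its presence thus follows the AS label in all 8 lists. The regions chrX:64959591-64961793 (plus, 2203 bp), chr6:30691117-30693203 (plus, 2087 bp) and chr15:69070875-69072481 (minus, 1607 bp) showed the same pattern. Their scores in the K512R-AS-named lists were 535.78 and 604.7, 526.01 and 3100, and 713.8 and 226.82, respectively. Over all gained regions this pattern held for 1106 of 3021 (36.6%).

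Other top gained regions also had a peak outside the AS-named lists. The regions chr11:16776418-16777880 (plus, 1463 bp), chr3:49396579-49397815 (minus, 1237 bp) and chr2:203070903-203072044 (minus, 1142 bp) had a peak in 1 K512R-named list, at scores of 28.26, 85.72 and 58.77. In both K512R-AS-named lists they scored between 1434.3 and 2271.8. The regions chr12:49666036-49667121 (plus, 1086 bp) and chr19:36245467-36246476 (minus, 1010 bp) were gained here at 3100 in both lists. Neither had a peak in a K512R-AS-named list, and each had 1 in a K512R-named list. The regions chr16:28853732-28854469 (minus, 738 bp) and chr15:72491370-72492097 (minus, 728 bp) had a peak in both K512R-named lists. They scored 104.11 and 116.87, and 114.01 and 274.12, there. In the K512R-AS-named lists the chromosome 16 region scored 3100 in both, and the chromosome 15 region 378.8 in replicate 1 only. A gain at the top score in both WT-AS-named lists was therefore not always seen in the K512R-based lists.

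The widest gained regions were mostly weak peaks. The regions chrX:150573388-150577836 (plus, 4449 bp) and chr3:88101177-88105594 (minus, 4418 bp) scored 30.87 and 46.86, and 36.17 and 18.27, in the WT-AS-named lists. Both were also in both K512R-named lists, at 73.95 and 341.34 and at 236.79 and 446.09, and in neither K512R-AS-named list. The region chr2:99812036-99816020 (plus, 3985 bp) was stronger, at 933.1 and 787.14, and was in both K512R-AS-named lists and no K512R-named list.

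**Figure D1:**
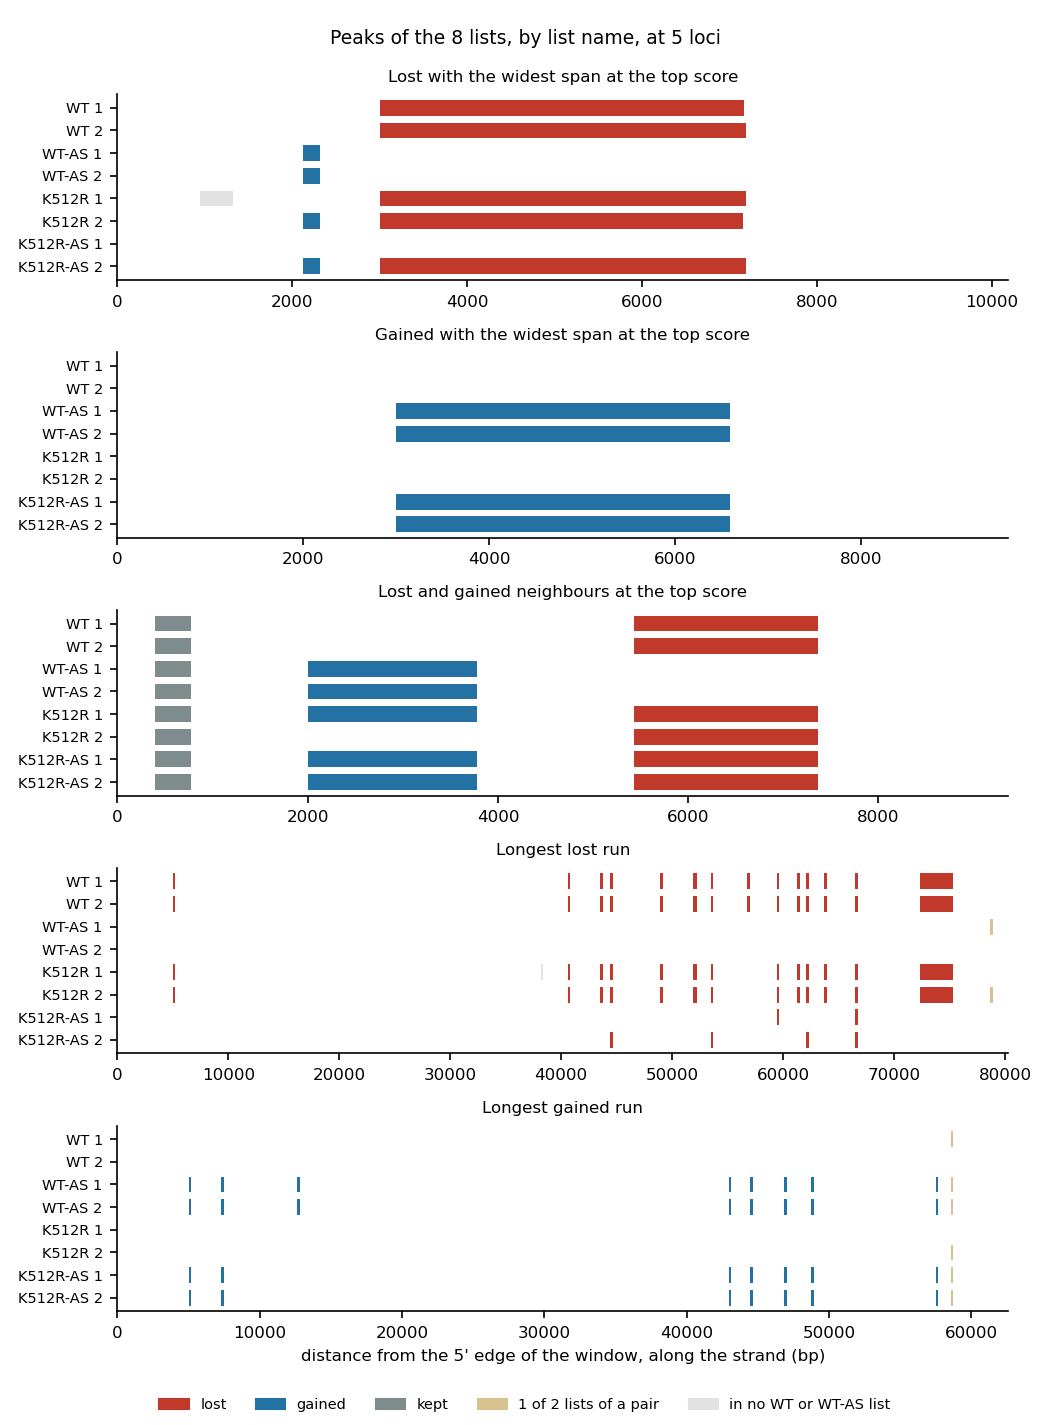
Peaks of the 8 lists along 5 loci, in bp from the 5' edge of each window along the strand, with a bar for each peak coloured by the class of its region. From the top these are the lost region of 4186 bp on chromosome 16, the gained region of 3587 bp on chromosome 14, the neighbours on chromosome X (gained, 1777 bp; lost, 1933 bp), the run of 14 lost regions on chromosome 19 and the run of 8 gained regions on chromosome 9. Narrow peaks are drawn at a minimum width so that they can be seen.

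The share of lost regions fell at each step of the score. Regions were ranked by the poorer of their 2 score percentiles within the lists of the pair that held them. They were split into 10 bins of equal percentile range. In the lowest bin 833 of 1711 regions were lost (48.7%, 95% Wilson interval 46.3% to 51.1%), in bin 5 18.2% of 1873, and in the highest bin 33 of 1948 (1.69%, 1.21% to 2.37%). The gained share fell less steeply, from 34.5% of 1669 in the lowest (32.2% to 36.8%) to 3.20% of 1812 in the highest bin (2.48% to 4.12%). In the highest bin the gained share was thus above the lost share, and in the lowest bin below it. The intervals cover counting error only, and regions of a gene are not independent. Sites at the edge of the rule were weak too. In the 2178 regions with both WT peaks and 1 WT-AS-named peak, that lone peak had a median score of 28.63, and in the 1815 regions of the reverse kind it was 35.06. For lost and gained regions the median of the poorer score was 39.59 and 52.9.

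**Figure D2:**
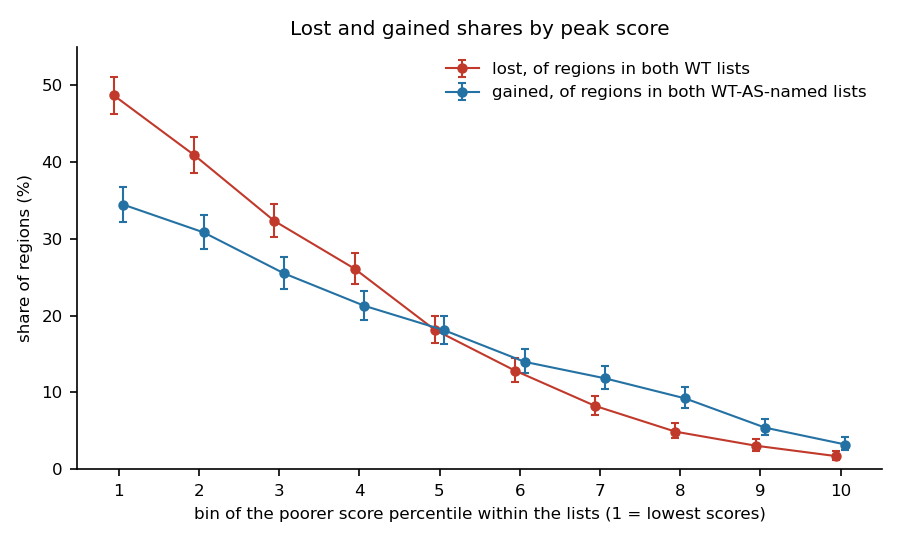
Share of regions lost (of those in both WT lists) and gained (of those in both WT-AS-named lists) by bin of the poorer score percentile, from 1 (lowest) to 10; bars are 95% Wilson intervals for counting error. The lost share falls from 48.7% to 1.69% and the gained share from 34.5% to 3.20%.

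Where a region was kept, the bounds of its peaks hardly differed between the lists. Within the 12803 kept regions the peaks covered 4.61 and 4.63 Mb in the WT lists and 4.57 Mb in each WT-AS-named list. The mean went from 4.62 ± 0.0126 to 4.57 ± 0.00209 Mb (SD, n = 2 each), a fall of 1.05% (exact 2-sided permutation p = 0.333, the smallest this design allows). The covered length was the same to the base in all 4 lists in 10467 kept regions, or 81.8%. The smaller total length of the WT-AS-named lists thus lies mostly outside the kept regions. Covered length gives the bounds drawn by the caller and not the amount of RNA in a peak. How the caller sets bounds is not given, so equal bounds do not show that binding was unchanged.

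In few kept regions did the extent differ by 1.5-fold or more between every WT and every WT-AS-named list. Of the 12803, 44 were narrower in both WT-AS-named lists (0.344%) and 27 were wider (0.211%). The examples given are from the 6 of each kind with the largest change in bases, chosen after their values were seen. The region chr6:43471361-43474291 (plus) was covered over 2631 and 2931 bp in the WT lists and over 371 and 321 bp in the WT-AS-named lists, 8.04-fold less on average. It covered 2930 and 2841 bp in the K512R-named lists and had no peak in the K512R-AS-named ones. The region chr19:56124959-56128660 (plus) went from 3570 and 3614 bp to 771 and 1066 bp, and the K512R-AS-named lists held 1015 and 1672 bp of it against 3702 and 3625 bp in the K512R-named lists. On chr19:10332109-10335623 (minus) the WT lists covered 3368 and 3336 bp and the WT-AS-named lists 790 and 1462 bp. In the other direction chr6:88049834-88052041 (plus) went from 807 and 737 bp to 1962 and 2208 bp, and held 1996 and 1914 bp in the K512R-AS-named lists. The region chr1:184588652-184591163 (plus) went from 847 and 1121 bp to 2309 and 2512 bp, but covered 1124 bp in each K512R-AS-named list, close to its extent in the WT lists.

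Lost regions lay near other lost regions, gained regions near other gained ones, and the classes rarely mixed. Within 10 kb on the same strand, 39.4% of lost regions had another lost region (1397 of 3544) and 1.86% had a gained region (66). Of the gained regions, 40.9% had another gained region (1237 of 3021) and 2.25% a lost one (68). The 95% Wilson intervals, for counting error only, were 1.47% to 2.36% and 1.78% to 2.84% for the mixed neighbours. Among kept regions, 9.05% had a lost (8.57% to 9.56%) and 9.41% a gained region (8.92% to 9.93%) within 10 kb. Changed regions also lay apart from kept ones: 27.1% of lost and 32.8% of gained regions had a kept region within 10 kb, against 58.2% of kept regions. Among the 14981 regions in both WT lists that were not lost, this share was 55.9%. These shares were not split by score, and lost and gained regions had lower scores than kept ones. The median poorer percentile was 23.4 for lost, 29.4 for gained and 48.6 for kept regions, the last over all 4 lists. The median gap to the nearest kept region was 39.7 kb for lost, 24.5 kb for gained and 6.84 kb for kept regions. The share of lost regions with a gained neighbour is sensitive to single lists. It was 3.69% without WT replicate 1, 3.96% without WT replicate 2, and 5.18% and 5.99% without WT-AS-named replicates 1 and 2. Neighbouring regions can be parts of the same gene, which was not analysed here.

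**Figure D3:**
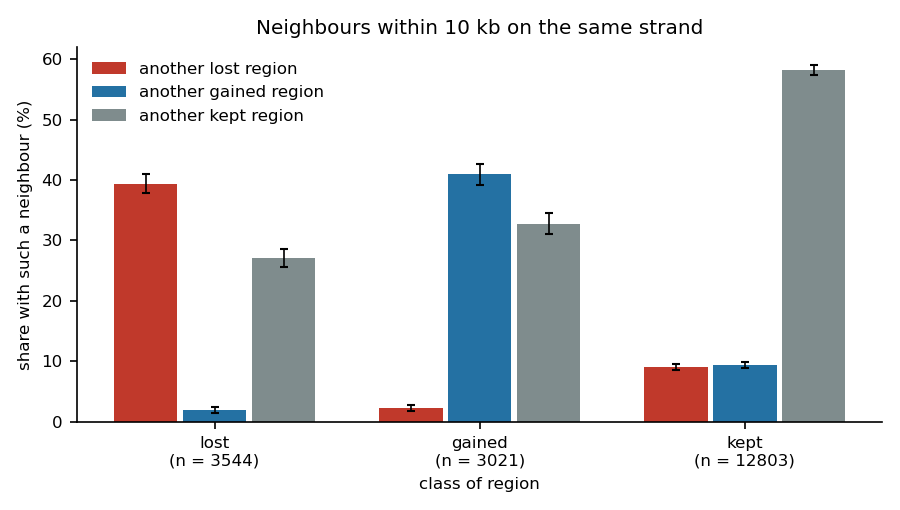
Share of lost, gained and kept regions that have another lost, gained or kept region within 10 kb on the same strand; error bars are 95% Wilson intervals for counting error. The lost-to-lost and gained-to-gained bars stand at 39.4% and 40.9%, and the lost-to-gained bar at 1.86%.

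Some lost regions and some gained regions stood in runs, which by definition have no other class between their members. A run is a chain of neighbouring regions on a strand with gaps of up to 50 kb, and regions without a peak in the 4 lists were passed over. Most runs were single regions, 2074 of 2660 for lost and 1650 of 2179 for gained ones. Kept regions were not put into runs, so the shares that follow have no share of kept regions beside them. Of the lost regions 656 (18.5%) were in 179 runs of 3 or more, and 675 gained regions (22.3%) were in 181 such runs. The longest held 14 lost regions on chr19:3630179-3700490 (minus strand, 70.3 kb). These were 84 to 2989 bp wide, with poorer WT scores of 16.42 to 270.09. Of the 14, 13 had a peak in each K512R-named list, and 2 and 4 in K512R-AS-named replicates 1 and 2. A run of 10 on chr11:7535000-7674992 (plus, 140 kb) had 8 regions in each K512R-named list and 1 and 2 in the K512R-AS-named ones. Runs of 8 on chr16:57792129-57822625 (minus), 7 on chr12:27538414-27578746 (plus) and 7 on chr19:1818705-1854759 (minus) followed the same pattern. In them 6 or 7 regions were in each K512R-named list, and 0 or 1 in each K512R-AS-named list. Over all lost regions, 82.5% and 84.5% had a peak in the K512R-named lists and 20.03% and 22.1% in the K512R-AS-named lists. The pattern was thus not particular to runs.

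The longest gained runs held 8 regions each. They lay on chr9:102769860-102822454 (minus), chr13:45517577-45556289 (minus), chr20:35832288-35860794 (plus) and chr21:26961147-26978967 (minus). On chromosome 9, 7 of the 8 regions were in each K512R-AS-named list and none in a K512R-named list. The run on chromosome 13 had 5 regions in each K512R-AS-named list, that on chromosome 20 had 4 and 5, and that on chromosome 21 had 5 and 7. In the K512R-named lists the run on chromosome 21 had 1 region in each, and the runs on chromosomes 13 and 20 had none. A further run of 7 on chr2:86371055-86408495 (minus) had 6 regions in each K512R-AS-named list and none in a K512R-named list. Over all gained regions, 20.9% and 23.8% had a peak in the K512R-named lists and 65.5% and 68.9% in the K512R-AS-named lists. The runs lay on both sides of the K512R-AS-named shares. The gained regions of these runs were narrow, with medians of 96 to 190 bp over the 5 runs.

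Regions were also grouped into clusters, which end where the gap on a strand exceeds 10 kb. Regions with a peak in only 1 list of a pair joined clusters but were not counted. In what follows, alone means without the other classes out of kept, lost and gained. Of 2047 clusters with 3 or more kept, lost or gained regions, 850 held kept regions alone, 120 lost alone and 103 gained alone. Another 443 held lost with kept and no gained regions, and 470 gained with kept and no lost ones. Lost and gained regions stood together in 61, and 5 of these had no kept region. Clusters of lost regions alone numbered 196 without WT replicate 1 and also 196 without WT replicate 2, and those of gained regions alone 157 without WT-AS-named replicate 1. Without regions under 150 bp they were 48 and 21, and with presence in 1 list enough they were 291 and 207. Clusters stand in for genes here, but neighbouring genes can fall into the same cluster and a long gene into several.

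The few lost regions near a gained one included sites at the top score. For what follows, regions were parted into low, middle and high scores at equal steps of the percentile. Among lost regions, 1.34% of 2314 with low scores (0.945% to 1.895%, 95% Wilson) and 7.46% of 228 with high scores (4.71% to 11.6%) had a gained region within 10 kb. Of the 32 lost regions at the top score in both lists 5 did. Kept regions, of which 9.41% had a gained region within 10 kb, were not split by score. Among gained regions, 1.68% of 1671 with low scores (1.16% to 2.41%) and 3.63% of 386 with high scores (2.17% to 5.995%) had a lost region within 10 kb, as did 3 of the 55 at the top score. On the minus strand of chromosome X, chrX:153712056-153713988 (1933 bp) was lost at 3100 in both WT lists. Toward the 5' end and 1656 bp away, chrX:153715645-153717421 (1777 bp) was gained at 3168.47 and 3100. The lost region scored 939.77 and 3100 in the K512R-named lists and 122.71 and 25.86 in the K512R-AS-named lists. The gained region was in 1 K512R-named list, at 3100, and in both K512R-AS-named lists at 3100. Next to the lost region of 4186 bp on chromosome 16, chr16:81075886-81076085 (plus, 200 bp) was gained at 310.55 and 244.05, with a gap of 680 bp. On chr19:18654719-18654887 (minus) a lost region of 169 bp lay 312 bp from a gained one of 111 bp at chr19:18654296-18654406, which scored 1860.26 and 2257.54. On the opposite strand, 7 of 3544 lost and 3 of 3021 gained regions overlapped a peak of the other pair. Without regard to strand, 2.63% of lost regions had a gained region within 10 kb, against 1.86% on the same strand.

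Gained regions were more frequent at the 3' end of clusters than at the 5' end. Clusters of 3 or more regions were built from the regions held in both lists of a pair. Among WT clusters the lost share was 20.9% at the 3'-most region (377 of 1805, 95% Wilson interval 19.1% to 22.8%), 17.5% inside and 16.5% at the 5'-most region (14.9% to 18.3%). Among WT-AS-named clusters the gained share was 23.9% at the 3'-most region (438 of 1834, 22.0% to 25.9%), 17.3% inside and 12.3% at the 5'-most (10.8% to 13.8%). The 3'-most regions had lower scores than the 5'-most ones, with median percentiles of 54.1 and 60.9 in the WT lists. At each level of the score the gained share at the 3' end stayed above that at the 5' end, with 39.7% against 25.9% at low, 24.5% against 14.5% at middle and 10.5% against 3.67% at high scores. For lost regions the values were 42.7% against 43.7%, 19.4% against 15.3% and 5.90% against 2.91% in the same order, so at low scores the lost share was not higher at the 3' end. Without regions under 150 bp the 3' minus 5' difference was 7.83 percentage points for lost regions (4.38 with all) and 8.18 for gained regions (11.6 with all). With peaks at or above the lower quartile of the score it was 2.65 and 13.3, and with clusters ended at 5 kb 2.60 and 9.14. The end of a cluster need not be the end of a transcript.

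The chromosomes did not share evenly in the change. The share of a list's peaks on a chromosome was lower in both WT-AS-named lists than in both WT lists for 10 of 24 chromosomes (41.7%) and higher for 13 (54.2%). Such non-overlap was thus common to nearly all chromosomes, and the sizes differ. Chromosome 19, which is known as gene-dense, held 7.40% and 7.46% of the peaks in the WT lists and 6.34% and 6.36% in the WT-AS-named lists. The K512R-named lists had 7.23% and 7.24% there and the K512R-AS-named lists 6.50% and 6.49%. On chromosomes 17, 16 and 22, also known as gene-dense, the mean share changed by -0.662, -0.495 and -0.39 percentage points, and on chromosome 9 by -0.561. Chromosome X held 3.03% and 3.04% in the WT lists against 3.85% in each WT-AS-named list, and chromosome 13, known as gene-poor, 1.96% and 1.93% against 2.33% and 2.24%. Chromosome 18, likewise gene-poor, did not follow chromosome 13, with 1.91% and 1.89% against 1.81% and 1.84%.

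Chromosome 19 had few gains, and chromosome X few losses. Of the regions of chromosome 19 in both WT-AS-named lists 5.85% were gained (65 of 1112), while the other chromosomes except Y ranged from 12.4% to 24.1%. Its lost share, 19.6% of 1400, was close to the 19.1% over all chromosomes. Within each level of the score, however, its lost share was above that elsewhere. The values were 44.2% against 38.8% at low, 21.4% against 15.7% at middle and 4.04% against 3.52% at high scores. Only at middle scores were the Wilson intervals apart, at 17.7% to 25.5% against 14.8% to 16.7%. At low, middle and high scores, 11.3%, 6.63% and 2.05% of the regions on chromosome 19 were gained, against 30.4%, 16.9% and 6.76% elsewhere. On chromosome X 9.74% were lost (53 of 544) and 21.6% gained (148 of 685). In the same order 21.8%, 7.41% and 2.30% of its regions were lost, against 39.6%, 16.3% and 3.62% elsewhere. Its gained shares were 38.3%, 23.1% and 6.98%, against 29.1%, 16.0% and 6.36% elsewhere. At high scores the Wilson intervals overlapped for both classes, with lost shares of 0.988% to 5.28% against 3.18% to 4.12%. At low and middle scores they were apart. The highest lost shares were 24.2% on chromosome 9 and 24.1% on chromosome 16, and the highest gained share was 24.1% on chromosome 13.

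**Figure D4:**
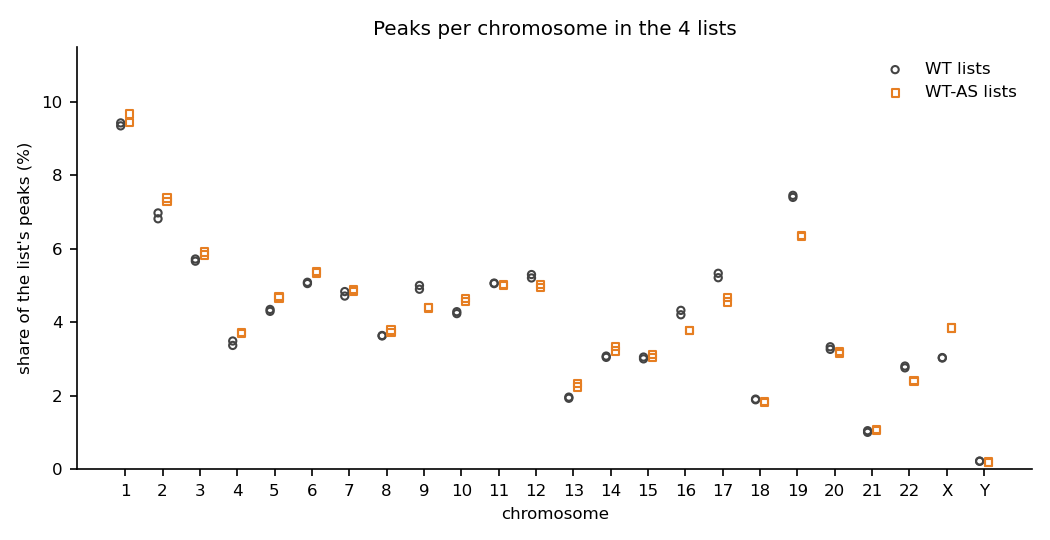
Share of each list's peaks on each chromosome, in percent, with circles for the 2 WT lists and squares for the 2 WT-AS-named lists. Chromosome 19 goes from 7.40% and 7.46% to 6.34% and 6.36%, and chromosome X from 3.03% and 3.04% to 3.85% in both lists.

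The 4 lists that the rule did not use separated the classes as well. These are named K512R and K512R-AS, and by the record they are the immunoprecipitate and the input of WT cells with arsenite. Of the 3544 lost regions 82.5% and 84.5% had a peak in K512R-named replicates 1 and 2, and 20.03% and 22.1% in the K512R-AS-named replicates. Of the 3021 gained regions 20.9% and 23.8% had a peak in the K512R-named lists, and 65.5% and 68.9% in the K512R-AS-named lists. Kept regions were present in 92.1% to 96.6% in each of the 4. Of the regions in both WT lists that were not lost, 86.4% and 88.7% were in the K512R-AS-named lists. In either class both lists of one name lay on the same side of both lists of the other. An exact permutation test of 2 lists against 2 cannot go below 0.333, so the values are given by list.

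The repeat in the K512R-based lists was not complete. Of the 3544 lost regions 1875 (52.9%) were also lost between the K512R-named and K512R-AS-named lists. There 5295 of the 20905 regions in both K512R-named lists (25.3%) were lost. The 1875 are 35.4% of those 5295. The bases of 52.9% and 25.3% are unlike, since regions not in both K512R-named lists could not be lost there. Of the lost regions in both K512R-named lists, 1875 had a peak in no K512R-AS-named list, 474 in 1 and 343 in both. These 343 are 9.68% of the lost regions, and 240 (6.77%) had a peak in no K512R-based list. Only 24 were gained there. Of the 3021 gained regions 1106 (36.6%) were also gained between the K512R-based lists, which is 48.0% of the 2303 gained there. Those 2303 are 13.3% of the 17298 regions in both K512R-AS-named lists, so the bases of 36.6% and 13.3% are again unlike. Of the gained regions in both K512R-AS-named lists, 1106 had a peak in no K512R-named list, 371 in 1 and 242 in both. In all 4 K512R-based lists 242 gained regions (8.01%) had a peak, and in none of them 519 (17.2%). Another 66 (2.18%) were lost there. The 2 comparisons use no list in common.

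Among the 581 lost regions above the median percentile in both WT lists, 94.0% and 92.8% were in the K512R-named lists and 27.7% and 29.1% in the K512R-AS-named lists. Among the 787 such gained regions 23.9% and 27.1% were in the K512R-named and 85.5% and 87.0% in the K512R-AS-named lists. Of the 32 lost regions at the top score, 24 and 23 were in the K512R-named and 12 and 16 in the K512R-AS-named lists. Of the 55 gained regions at the top score, 17 were in each K512R-named list and 47 in each K512R-AS-named list.

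**Figure D5:**
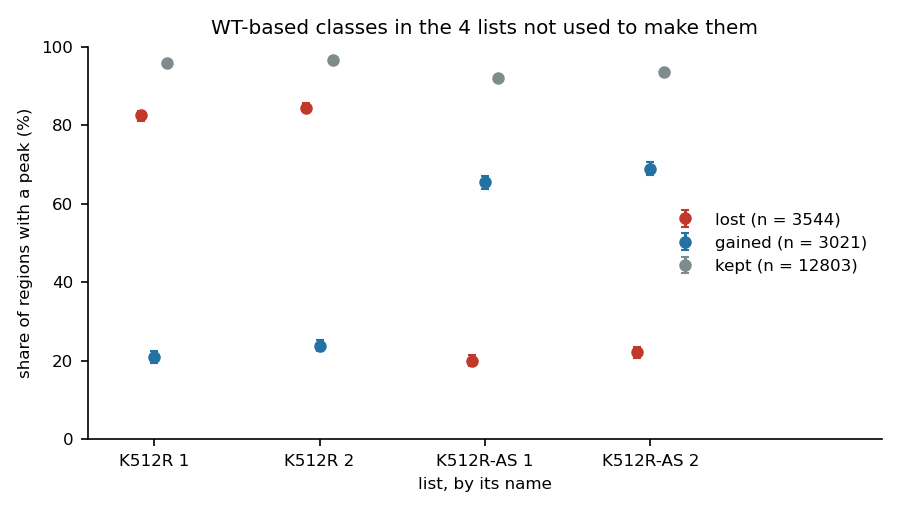
Share of lost, gained and kept regions with a peak in each of the 4 lists named K512R and K512R-AS, with 95% Wilson intervals for counting error. Lost regions stand at 82.5% and 84.5% in the K512R-named lists and at 20.03% and 22.1% in the K512R-AS-named lists, and gained regions at 20.9%, 23.8%, 65.5% and 68.9%.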

How the data were processed

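For each of 8 samples the authors deposited a peak list that gives the position and strand of each peak and a score of unstated unit, from 13.02 to 3233.06. The submitters' processing notes name cutadapt 1.9.3, HISAT2 2.0.4 and hg19. The peak names begin with MACS, and the sources used here do not give the caller's version, control or threshold. Positions count from 1.

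Groups follow the record's titles, and the conflict with the list names is given in the report. Joining, presence and distances were checked on simulated lists over the 36802 regions. The gene table at hand is for another genome build, so loci have no gene names and no sequence is printed.

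The members and lists were chosen with earlier results of these data known. Named regions are the 12 lost and 12 gained ones with the best poorer score percentile (ties by width), the 5 widest and the 5 longest runs of each class. Clusters, positions in them, narrowed and widened regions, opposite-class neighbours by score, and chromosome shares and score levels were added after the lists had been explored. Alternatives covered score, list length, joining, strand, presence rule, region width, distance and single lists. The work used Python 3.11.15 with pandas 2.3.3, scipy 1.17.1, numpy 2.4.6 and, for plots, matplotlib 3.10.9.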

Additional observations from a re-analysis of the deposited data

How the results depend on the processing

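Counts of lost and gained regions stayed within 1.5 times of the main values when peaks were limited by score or list length, joined otherwise or taken without strand. With presence in at least 1 of 2 lists they were 7463 and 5800, and without regions under 150 bp 2301 and 1589. Leaving out 1 list gave 4460 to 5522 lost and 3883 to 4607 gained regions, since presence then needs fewer lists. The share of lost regions with a kept region within 10 kb (27.1%) was 23.99% with peaks at or above the lower quartile of the score, 29.4% without strand, 24.2% with presence in 1 list, 19.3% without narrow regions, 16.4% at 5 kb and 53.9% at 50 kb, and 25.6% to 35.8% with 1 list left out. The share with a gained region was 2.63% without strand, 7.99% with presence in 1 list, 1.35% at 5 kb, 7.31% at 50 kb, and 3.69% to 5.99% with 1 list left out. Lost regions had a peak in the K512R-named lists more often than in the K512R-AS-named ones by 62.47 percentage points. That was 66.6 with the score limit, 53.8 at equal length, 47.2 with presence in 1 list and 51.2 to 55.5 with 1 list left out. For gained regions the difference was -44.84, and -49.7, -54.4, -29.5 and -38.0 to -33.4 in the same order. The causes of these shifts were not tested, except that the presence rule and left-out lists admit weaker evidence by construction. The difference of covered length in kept regions was -0.0487 Mb with and without the replicate block, and kept its sign in every alternative run for it (the looser presence rule was not). Same-numbered WT and WT-AS-named lists had Jaccard indices of 0.545 and 0.553, and the others 0.547 and 0.544. These indices cannot tell whether lists of the same number were paired. With clusters ended at 5 or 20 kb, the 3' minus 5' difference in the gained share was 9.14 and 12.8 percentage points, and that in the lost share 2.60 and 4.56. Without regions under 150 bp these were 8.18 and 7.83, and with the score limit 13.3 and 2.65. Without depth or counts, no size of change within a peak can be given.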
